A study of Caenorhabditis elegans with 2 samples.

Results

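LIN-29 is the zinc finger transcription factor at the end of the Caenorhabditis elegans developmental timing (heterochronic) pathway, and these data come from chromatin immunoprecipitation with sequencing (ChIP-seq) of the protein carrying an EGFP tag. Described here are 568 genomic regions that the deposited data rank high by signal but that none of the 4 thresholded peak lists contains. They were chosen from the series-wide ranked list that holds all 906 rows of the matching thresholded list. Overlapping rows of that ranked list were merged into 54915 regions, each keeping its row of highest signal, of which 1531 had a signal of 50 or more. Of those 1531, 838 overlapped the matching thresholded list and are called sites, 125 overlapped only another thresholded list, and the remaining 568 are the regions described, called unlisted regions. Signal and absence from the lists chose them, so neither is a finding. Candidates with a signal under 50 in no list numbered 53322.

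The series has 1 group of 2 biological replicates. The animals were whole worms of strain RW12227, genotype st12227[lin-29::TY1::EGFP::3xFLAG] II, in which CRISPR inserted the TY1, EGFP and 3xFLAG tags into the worm's own lin-29 gene. They were L4 larvae of 49 hours, grown from larvae starved at L1 after bleaching, and the antibody recognised GFP, per the labels. Whole animals were used, so a region bound in few cells and one bound weakly in many cannot be told apart, and no control immunoprecipitation was analysed here. The labels do not say whether the tagged protein is fully functional. No read counts are in the lists, so depth is unknown, and no second condition exists to test against.

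A peak list of this kind is made in steps. A peak caller gives each candidate a signal, the irreproducible discovery rate (IDR) then measures how well the rank of a candidate repeats between 2 inputs, and candidates under a chosen IDR are kept as the thresholded list. Repeated DNA is a known difficulty of ChIP-seq, because reads from many copies of a sequence can be placed at few copies of it in the assembly. LIN-29 itself is known for turning on the adult programme of the epidermis at the last larval moult, with MAB-10 as its cofactor.

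The unlisted regions were of 2 kinds, seen in the plot of score against signal. The deposited score runs up to 1000 and rises as the IDR falls, and 830 was the smallest score in the thresholded lists, which stands for an IDR of 0.01. In the ranked list, 876 of 54915 merged regions (1.6%) reached that score. Of these, 21 were in no thresholded list, and all 21 had a signal of 50 or more and so are among the 568. The sources used here do not say which step left them out. Their median signal was 97.1 and their highest 1602.6. The other 547 unlisted regions fell below the score, with a median signal of 53.5, a highest signal of 88.4 and IDR values from 0.0101 to 0.771. Unlisted regions made up 354 of the 398 regions with a signal from 50 to 55 (88.9%), 55 of the 364 from 60 to 75 (15.1%) and 10 of the 271 at 100 or more (3.69%).

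**Figure D1:**
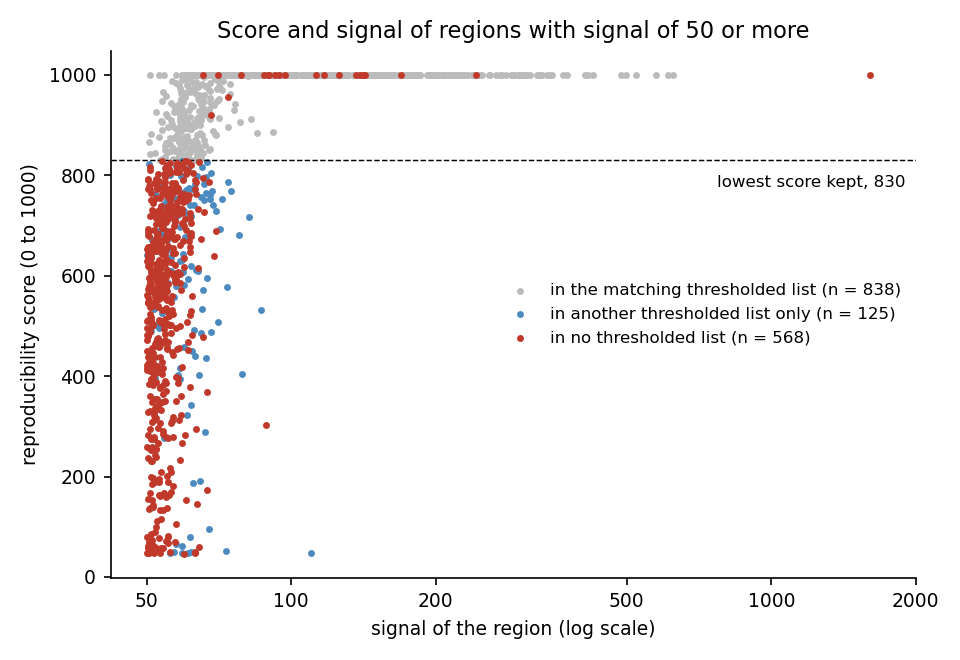
Reproducibility score (y axis, 0 to 1000) against signal (x axis, log scale) for the 1531 regions with a signal of 50 or more, 1 point per region. The 568 unlisted regions (red) lie mostly between 50 and 60 and below the dashed line at 830, while 21 of them lie above it and reach a signal of 1602.6.

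Of the 21 regions that met the score, 20 were tandem repeats. A region was called tandem when at least 50% of its bases lay in 12-base words that recur within it, a definition chosen after the data were seen. By it 20 of the 21 were tandem (95.2%, 95% Wilson interval 77.3 to 99.2%), against 16 of the 547 below the score (2.93%), 15 of the 838 sites (1.79%) and 106 of 5321 candidates under 50 that were examined (1.99%). The exception lay in the tandem array of 5S rRNA and SL1 genes on chromosome V, whose unit is longer than a region. The share of 31-base words that occur once in the genome had a median of 5% in the 21, and 20 of them were mostly repeated, with a single-copy share below 50%. Repetition alone did not separate unlisted regions from sites, because 62 of the 838 sites were mostly repeated as well. None of the 21 lay in a promoter, in a UTR or in a coding exon. Of the 21, 20 were in intergenic sequence more than 1000 bp from a coding gene's 5′ end and 1 was in an intron of usp-39.

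The stretches below show the repeats at 6 of the 10 strongest of these regions, each from a different array, on the forward strand of ce11. They are printed because the repeated unit is what these regions have in common, and the arrays near Y95D11A.1 and Y57G11C.8 are described without sequence. Capitals mark 1 repeat unit in each. The stretches are chrX:15811087-15811161 near Y7A5A.7, chrV:5284053-5284173 near Y49G5A.1, chrIV:10945790-10945910 near Y69E1A.1, chrII:8292359-8292479 near nlp-55, chrIV:12319037-12319157 near oac-58 and chrII:14337783-14337903 near ddl-3.
Y7A5A.7: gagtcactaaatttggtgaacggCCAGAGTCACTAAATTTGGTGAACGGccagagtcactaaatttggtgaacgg
Y49G5A.1: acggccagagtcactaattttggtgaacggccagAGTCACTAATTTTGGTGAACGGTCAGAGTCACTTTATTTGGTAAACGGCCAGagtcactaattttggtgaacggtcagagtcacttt
Y69E1A.1: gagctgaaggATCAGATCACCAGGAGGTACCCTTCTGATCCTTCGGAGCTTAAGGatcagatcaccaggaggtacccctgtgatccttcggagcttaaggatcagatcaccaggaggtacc
nlp-55: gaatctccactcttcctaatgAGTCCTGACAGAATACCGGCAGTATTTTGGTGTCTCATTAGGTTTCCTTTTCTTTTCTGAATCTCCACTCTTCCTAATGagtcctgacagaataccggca
oac-58: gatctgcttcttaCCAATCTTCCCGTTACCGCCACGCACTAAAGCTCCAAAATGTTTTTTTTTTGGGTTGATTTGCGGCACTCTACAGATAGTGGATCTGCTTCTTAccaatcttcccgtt
ddl-3: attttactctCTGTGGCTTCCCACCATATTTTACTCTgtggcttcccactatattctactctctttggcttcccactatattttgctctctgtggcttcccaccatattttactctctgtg

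The strongest region of the ranked list was an unlisted one. It was chrX:15810981-15811161, 6934 bp upstream of Y7A5A.7, with a signal of 1602.6, against 625 at the strongest site. In replicate 1's own ranked list its signal was 876 and in replicate 2's 848, and it ranked 1 in each. It lay in an array of 4550 bp at chrX:15806856-15811405 with a unit of 26 bases. Read from another starting base than the capitals printed above, that unit had 34 exact copies in the assembly, 30 of them on chromosome X. The copy counts of the other units were also made from a fixed starting base that differs from the printed one, and exact counts can change with it. A second unlisted region in the same array, at chrX:15808048-15808337, had a signal of 141, with 80.1 in replicate 1 and 78.8 in replicate 2.

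An array on chromosome V carried a relative of the same unit. Neighbouring regions there, near Y49G5A.1, had signals of 242, 136 and 70.4 within an array of 2800 bp. The strongest had 129 in replicate 1 and 132 in replicate 2, the next 74.2 and 56.7, and the weakest 47.2 and 44.6. Together with the 2 regions on X they formed a group of 5 linked by shared 31-base words, the second largest such group among the unlisted regions. At the strongest of the 3 the unit was 52 bases long, and so counted it had 5 exact copies, all on V.

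Other arrays held 1 to 4 unlisted regions each. On chromosome IV the region near Y69E1A.1 had a signal of 169.6, with 99.0 in replicate 1 and 77.6 in replicate 2, and its 45-base unit had 9 exact copies, all on IV. It shared 31-base words with a region 2158 bp upstream of vha-19, a vacuolar ATPase subunit gene, where the signal was 89.5. An array of 7350 bp on chromosome I near Y95D11A.1, with a 32-base unit, held 4 unlisted regions with signals of 142.8, 87.9, 68.1 and 65.5. Near Y57G11C.8 on IV, 2 regions of 1 array of 1450 bp had signals of 117.0 and 97.1. Further tandem regions lay near Y61B8B.3 on V (94.1), zig-9 on I (92.6) and B0403.6 on X (73.7) and in the usp-39 intron (89.7). The ddl-3 repeat was the most dispersed of those printed, with 155 exact copies of its 27-base unit on 5 chromosomes.

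**Figure D2:**
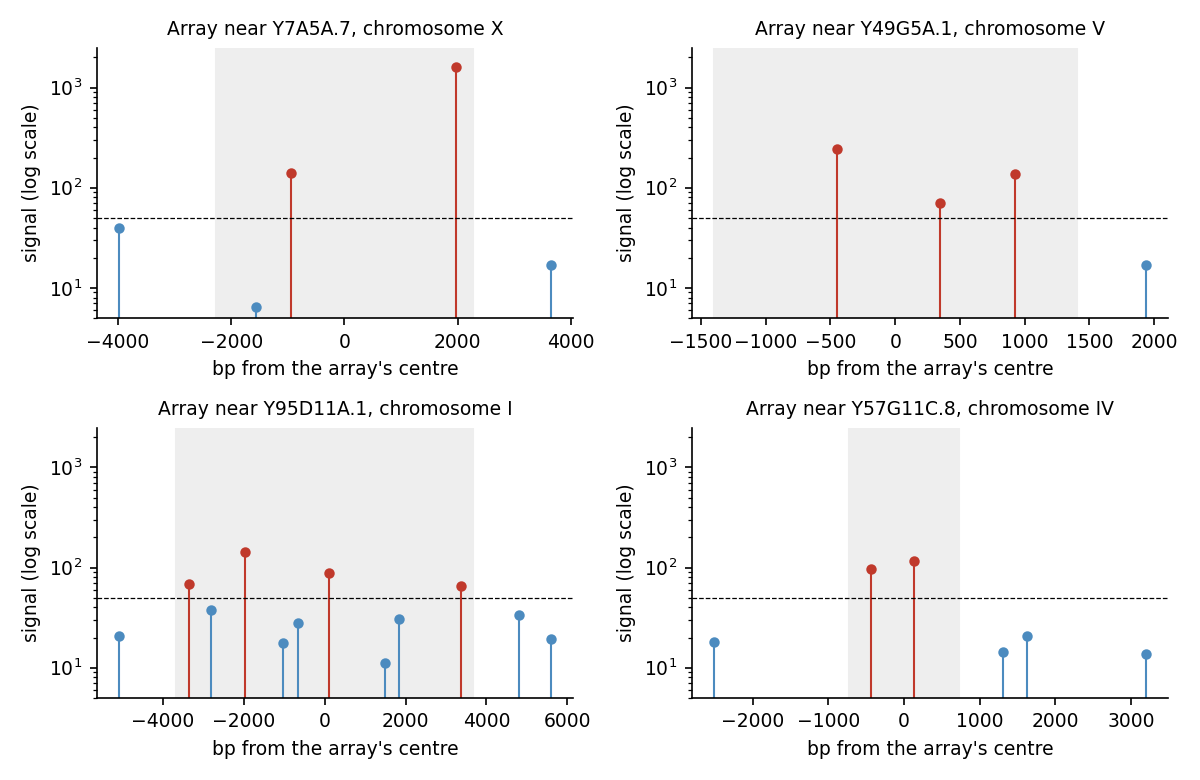
Signal (y axis, log scale) of every merged region along 4 tandem arrays, against the distance of its summit from the array's centre (x axis, bp). Grey bands are the arrays, red points are unlisted regions, blue points are candidates under 50 and the dashed line is a signal of 50. The 2 red points of the X array stand at 1602.6 and 141, and the candidate next to the weaker one, on its left, has 6.36.

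Replicate agreement was uneven among the 21. In the replicates' own ranked lists 14 of the 21 reached a score of 830 in replicate 1, 14 in replicate 2 and 9 in both. Each of those scores comes from the alignments of that replicate alone, so it does not measure agreement between replicates. Absence from the replicates' own thresholded lists was part of the choice of regions, so it says nothing about their agreement. Both replicates held an overlapping candidate for 19 of the 21. At chrII:8292274-8292563 near nlp-55, with a signal of 139, replicate 1 had 94.6 and replicate 2 had no overlapping candidate, its nearest lying 411 bp away with a signal of 23.7. At chrIV:12318952-12319241 near oac-58, with a signal of 126, replicate 1 had 83.0 and replicate 2 again had none, its nearest lying 1585 bp away with 13.5. Among the strongest 20 regions, the only one below a score of 830 was chrX:293303-293592 near R57.2. Its signal was 88.4 and its score 302, with 57.4 in replicate 1 and no overlapping candidate in replicate 2, and it too was mostly repeated, with a single-copy share of 11.9%.

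The 5S rRNA and SL1 array gave 2 unlisted regions. SL1 is the short leader that is spliced onto the 5′ end of many worm messenger RNAs, and its genes alternate with 5S rRNA genes in this array. One region, chrV:17122916-17123205, lay 23 bp from rrn-4.2 with a signal of 78.4, with 49.8 in replicate 1 and 31.2 in replicate 2. Its neighbour at chrV:17122076-17122365 had a signal of 64.9 and a score of 673, with 49.0 in replicate 1 and 11.4 in replicate 2. No site lay within 500 bp of an annotated rRNA gene (0 of 838). Of 31 spliced leader genes, 4 had an unlisted region in their window, resting on 3 regions, and 5 had a site.

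The 547 regions below the score were mostly unique sequence. Their median single-copy share was 100% and 27 of them (4.94%) were mostly repeated. A promoter, taken as the 1000 bp upstream of a coding gene's 5′ end, held 25.8% of them (141 of 547, interval 22.3 to 29.6%), 43.4% of sites and 17.2% of candidates under 50. Coding exons held 15.5% of them, 4.65% of sites and 28.5% of candidates under 50. Introns held 25.2%, 24.1% and 29.4%. Other intergenic sequence was the largest class of the 547, with 29.4%, above the 24.8% of sites and the 20.9% of candidates under 50. The 3′ UTRs held 2.38%, 0.716% and 2.21%, and the 5′ UTRs 1.65%, 2.27% and 1.79%. When only signals from 50 to 60 were taken, promoters held 25.5% of 495 unlisted regions and 36.8% of 95 sites. The band did not make the signals equal, with a median of 53.2 in those unlisted regions and 57.6 in those sites. The difference in promoter share was not tested. The median GC content within 50 bp of the summit was 46.5%, against 49.5% at sites and 40.6% at candidates under 50.

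**Figure D3:**
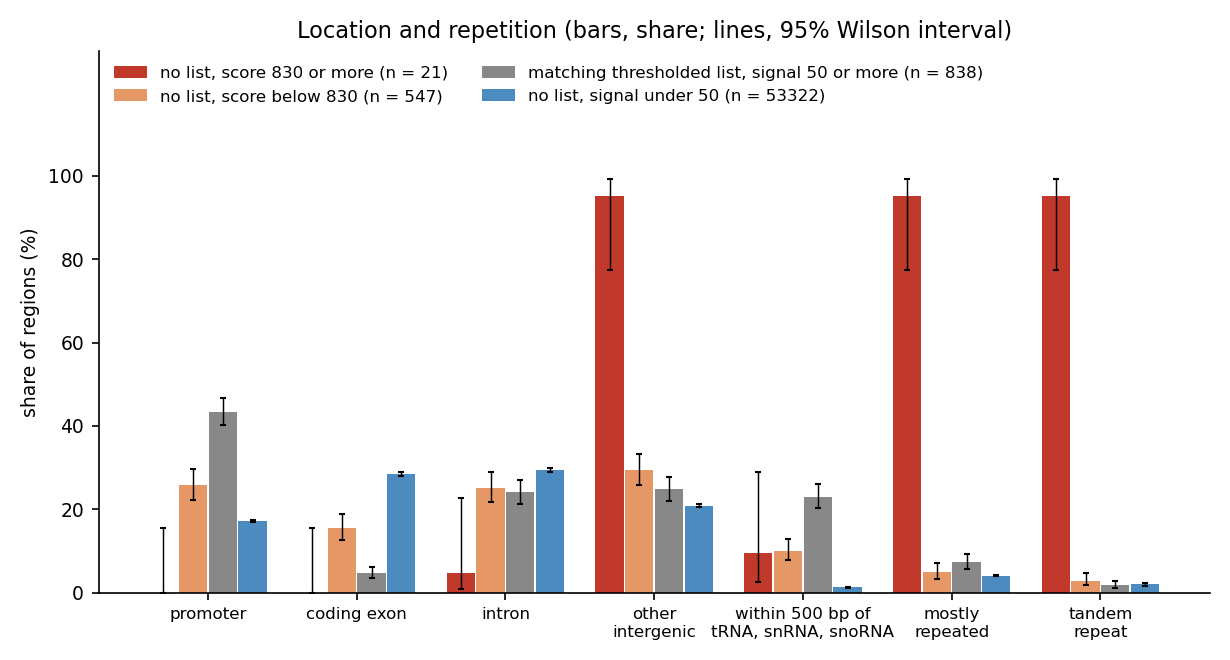
Share of regions (y axis, %) by location and repetition for the 21 unlisted regions that met the score, the 547 that did not, 838 sites and 53322 candidates under 50 (5321 of them for tandem repeats), with 95% Wilson intervals that cover counting error only. Of the 21, 20 are intergenic and 20 are tandem repeats, 19 of them both, and the 547 hold 25.8% promoters, between sites at 43.4% and candidates at 17.2%.

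These shares changed with signal among mostly single-copy regions in no list. Promoters held 17.1% of those with a signal from 20 to 30, 20.8% from 40 to 50, 26.3% from 50 to 60 and 30.6% of the 49 at 60 or more. Coding exons held 30.1%, 28.0%, 17.2% and 4.08% in the same 4 bands. Regions within 500 bp of a tRNA, snRNA or snoRNA gene made up 1.24%, 5.07%, 9.32% and 20.4%. An overlapping candidate in both replicates' own lists was present for 32.6%, 81.3%, 93.0% and 91.8%, a measure that shares its reads with the signal.

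**Figure D4:**
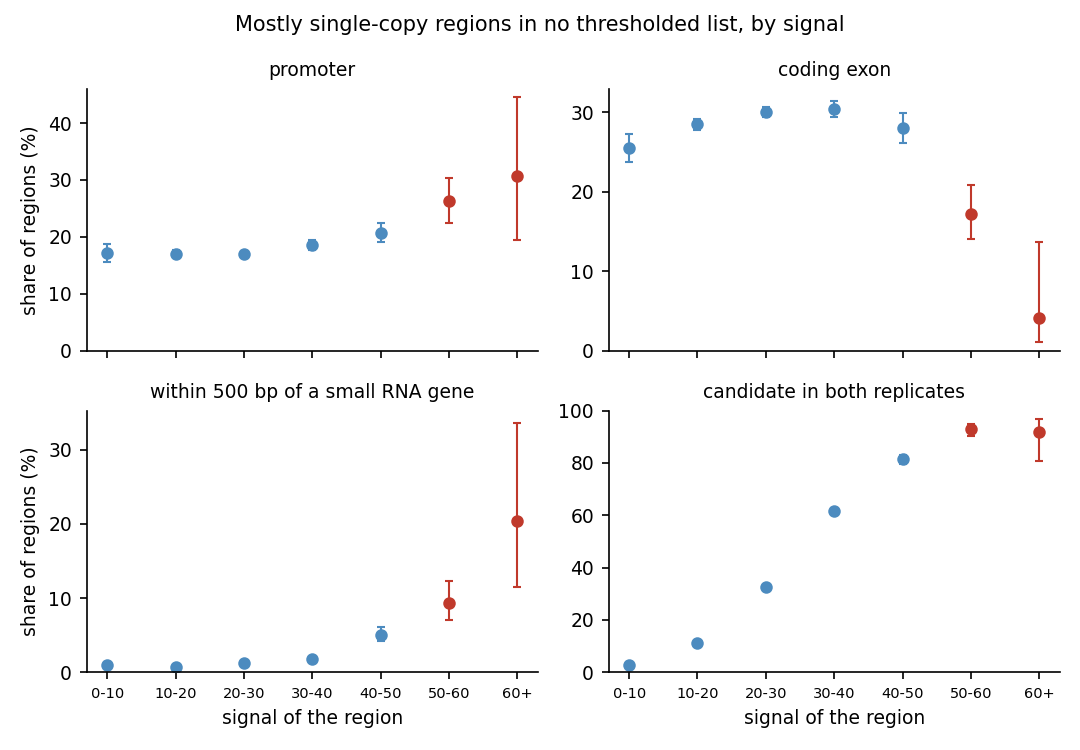
Share of mostly single-copy regions in no thresholded list (y axis, %) in bands of signal (x axis), with 95% Wilson intervals. Red points are unlisted regions (50 or more) and blue points candidates under 50. The promoter and small RNA shares are highest at 60 or more, at 30.6% and 20.4%, and the coding exon share is lowest there, at 4.08%.

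Genes for tRNAs, snRNAs and snoRNAs were near 10.1% of the 547 (55 regions), against 23.03% of sites and 1.31% of candidates under 50. The share was lower without replicate 1, at 4.89% of the 757 regions in no list among the 1531 strongest of replicate 2's own ranked list, against 10.04% of the 568. From replicate 1's list it was 8.62% of 650. Most were tRNA genes, which RNA polymerase III transcribes from inside the gene: 45 of the 547 (8.23%) lay within 500 bp of one. The largest group of unlisted regions linked by shared 31-base words had 6 members, all near tRNA genes, on chromosomes I, II and X. The strongest were next to C05G6.t1, with a signal of 66.6, C38C6.t1 with 65.5, ZK154.t3 with 62.9 and F10C1.t1 with 62.9, besides Y95D11A.4 at the end of the chromosome I array with 68.1. At C38C6.t1, replicate 1 had 21.1 and replicate 2 had 37.5, and the score of 794 was close under the kept one. ZK154.t3 had a score of only 47, with 21.9 and 31.8. Regions within 500 bp of a snoRNA gene numbered 8, led by C26C6.13 with a signal of 61.6 and C16D9.10 with 61.04. Beside the array on V, the snRNA class was represented by smy-1 (58.6), sls-2.14 (54.8) and T27E4.11 (53.7), and microRNA genes by mir-4929 (53.8) and mir-52 (51.8).

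Of 568 unlisted regions, 526 overlapped a candidate in both replicates' own ranked lists, 26 in replicate 1 only, 16 in replicate 2 only and 0 in neither. This share of 92.6% compares with 98.6% of sites and 30.2% of candidates under 50, and required a replicate summit anywhere in an overlapping region. With replicate summits held to within 100 bp it was 83.5%. The median signal was 28.5 in replicate 1 and 24.6 in replicate 2, and the 2 replicates' signals added up to a median of 0.979 times the series-wide one. Regions were admitted on the series-wide signal, so the spread of their replicate values across the line of equal signal is not independent of that choice. No slope was computed, and the part of the choice in that spread was not tested. Where both replicates had a candidate, the larger signal exceeded the smaller by a median of 1.40-fold for 507 of the 547 and 1.34-fold for 826 sites. Regions without a candidate in a replicate have no such fold and are left out of it. The signals of the 2 inputs compared in the series-wide list, which the sources used here do not tie to replicates, differed by a median of 1.46-fold for the 547 and 1.22-fold for sites. The score that sets the 547 apart from sites rests on the agreement of those 2 inputs. This last difference therefore follows from the split and is not a finding.

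**Figure D5:**
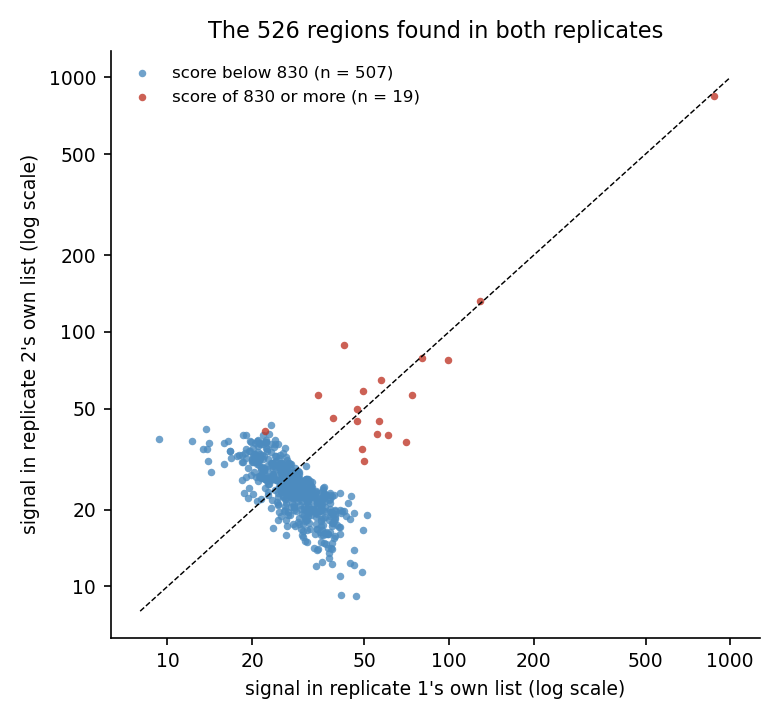
Signal in replicate 1's own ranked list (x axis, log scale) against replicate 2's (y axis, log scale) for the 526 unlisted regions found in both, with the line of equal signal dashed. The 507 below the score of 830 form a band across the line, and the 19 that met it reach 876 and 848.

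Some regions missed the score by little. Of the 547, 28 had a score of 800 or more, 98 from 700 to under 800 and 421 under 700. The highest, 829, an IDR of 0.0101, was at chrII:5652460-5652749 in the promoter of bli-2, 171 bp upstream of its 5′ end. BLI-2 is a collagen of the adult cuticle whose loss blisters it. Its signal was 59.95, with 32.3 in replicate 1, and replicate 2 had no overlapping candidate, its nearest lying 303 bp away with 18.5. A second blister collagen gene, bli-6, had a region in its 3′ UTR with a signal of 55.9 and a score of 824, with 40.8 in replicate 1 and 17.1 in replicate 2, and it lay 325 bp from a thresholded row. The promoter of sti-1, which encodes a co-chaperone of Hsp70 and Hsp90, had a signal of 57.8 and a score of 825, with 36.3 in replicate 1 and 16.18 in replicate 2. These 3 were chosen for naming after their values were seen, as were srw-71 (score 828), ZK622.4 (828) and F25B4.4 (827).

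The 5 strongest regions whose 31-base words all occur once in the genome are given next. An intron of pbrm-1, a chromatin remodelling subunit gene, had a signal of 69.8, with 40.5 in replicate 2 and no overlapping candidate in replicate 1. The promoter of ucr-2.2, a mitochondrial complex III subunit gene, had 68.9, with 41.0 in replicate 1 and 23.3 in replicate 2. At the promoter of mtrr-1, a methionine synthase reductase gene, the signal was 67.4, with 44.9 and 22.6. The promoter of Y119D3B.12 had 66.8 and a score of only 173, with 46.1 in replicate 1 and 19.5 in replicate 2. The promoter of npp-3, a nuclear pore gene, had 65.7, with 44.6 and 18.4.

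A gene was given an unlisted region if the summit fell anywhere from 2000 bp before its 5′ end to its 3′ end. By this measure 575 of 19985 protein-coding genes (2.88%) had one, and 128 unlisted regions lay in no such window. A site lay in the same window of 904 of the 19985 genes (4.52%). The gene lists described next were chosen with earlier results known, and their counts are descriptions without a test.

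Developmental timing genes held unlisted regions in 7 of 30 cases (23.3%), and 10 of the 30 held a site. Their windows were long, with a median of 7761 bp against 4026 bp over all coding genes, and the part of length in the count was not tested. In lin-29 itself there were 2 regions, both in introns, in a gene that also holds a site. The stronger, chrII:11928927-11929216, had a signal of 63.2 and a score of 294, with 36.0 in replicate 1 and 22.9 in replicate 2. The weaker had 50.2, with 25.5 in replicate 2 and no overlapping candidate in replicate 1. An intron of lin-14, whose protein sets early larval fates, had a signal of 57.8, with 18.4 in replicate 1 and 30.7 in replicate 2. At din-1, a co-repressor gene of the DAF-12 receptor, there were regions of 57.3 and 51.7, and an intron of daf-12, the steroid hormone receptor gene of the same pathway, had 53.4. A region 1819 bp upstream of let-7, the microRNA that acts late in the pathway, had 53.4, with 31.9 in replicate 1 and 17.8 in replicate 2. The let-7 region also lay in a coding gene's promoter, and its nearest coding gene was C05G5.2. A region in the sea-2 window, 14244 bp from the sea-2 5′ end and nearest to K10G6.9, had 52.0. It lay in a coding exon, and the gene of that exon was not recorded. An intron of mab-10, the LIN-29 cofactor gene, had 50.2, with 26.7 in replicate 1 and 25.4 in replicate 2. Of these 7 genes, lin-29 and sea-2 also held a site and the other 5 did not.

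Cuticle collagens held unlisted regions in 10 of 156 genes (6.41%) and sites in 6, with no gene in both. The 10 genes rest on 9 regions, because col-9 and col-44 share 1. The 5 strongest were col-77 (61.05), col-163 (59.8), col-105 (59.8), col-125 (53.9) and col-175 (52.9). Their replicate values were 24.1 and 37.5 at col-77, 29.5 and 26.1 at col-163, and 22.0 and 32.5 at col-175 for replicates 1 and 2 in turn. At col-105 replicate 1 had no overlapping candidate, and its score was 46. Coding exons rather than promoters held the region at col-77, col-163, col-105, col-149 and col-96. The list of epidermal and cuticle genes chosen by name had 1 of 31, which is bli-2.

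Nuclear receptor genes held unlisted regions in 11 of 269 cases (4.09%) and sites in 9. The strongest were nhr-91 (60.3), nhr-34 (59.2), nhr-88 (58.7), nhr-46 (56.99 and 53.99) and nhr-49 (56.5). The nhr-91 region, in an intron, had a score of 802, with 39.4 in replicate 1 and 19.2 in replicate 2. Ribosomal protein genes held them in 7 of 81 cases (8.64%) and sites in 25. Their leading regions were in the windows of rps-18 (63.9), rps-22 (61.7), rpl-36 (58.6) and, shared, rpl-24.1 and rps-10 (55.5), followed by rpl-29 (50.8). The rps-18 region lay 1469 bp upstream of that gene, in a coding exon, with sec-61.A the nearest gene. Those of rpl-36 and rpl-29 lay 1465 and 1212 bp upstream, nearest to rps-14 and B0513.4. At rps-18 replicate 1 had 49.6 and replicate 2 had 16.7. Of 36 genes in a list of housekeeping and heat shock genes 3 had one. These were the actin gene act-2 with 58.7, the ubiquitin gene ubq-2 with 56.4 and the heat shock gene hsp-16.48 with 53.7. The last region lay 1291 bp upstream of hsp-16.48, nearer to hsp-16.1, and is the one named above at T27E4.11. It had no overlapping candidate in replicate 2. The homeobox list had 1 of 63, ceh-2 with 55.2 and no overlapping candidate in replicate 2. That region lay 635 bp upstream of ceh-2 and 69 bp from the tRNA gene C27A12.t1. Histone genes (0 of 72), vulval, uterine and cell cycle genes (0 of 21), major sperm protein genes (0 of 31) and vitellogenin genes (0 of 6) had none. The histone genes held 8 genes with a site and the vulval, uterine and cell cycle genes 5.

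Unlisted regions clustered at few loci, with 44 of 568 within 2000 bp of another. Beside the arrays near Y49G5A.1 and Y95D11A.1, 3 neighbours were found at sec-61.A and at lit-1. At sec-61.A, a gene for the protein-conducting channel of the endoplasmic reticulum that adjoins rps-18, the signals were 63.9, 55.5 and 52.3. At lit-1, the Nemo-like kinase gene of the Wnt asymmetry pathway, they were 60.1, 52.9 and 52.6, all intronic, in a gene that also holds 2 sites. The third gene with 3 unlisted regions was vhp-1, a MAP kinase phosphatase gene, with a highest signal of 65.4 and no site. In all, 67 unlisted regions lay within 2000 bp of a thresholded row, and the median distance to the nearest such row was 30002 bp. By chromosome they ranged from 67 on I to 114 on X, or 4.45 per Mb on I to 6.60 per Mb on III.

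The summits of the 547 regions and of sites had the same leading word. GAGAGA, searched on both strands within 50 bp of the summit, was present at 14.99% of the 547, in 6.49% of windows of the same width 500 bp to either side, at 22.4% of sites and at 6.80% of candidates under 50. It led all 6-base words in both sets by share at summits minus share in flanks. ACGCAG was present at 7.68% of the 547, in 2.74% of their flanks, at 17.4% of sites and at 2.88% of candidates under 50, and it ranked 14 among the words of the 547 and 2 among those of sites. Among the same 757 regions from replicate 2's own list the ACGCAG share was 4.62%, and among the 650 from replicate 1's it was 8.0%, against 7.39% of the 568. AAAAAT went the other way, with 23.9% at the 547 summits against 36.5% of candidates under 50. None of the 21 regions that met the score held GAGAGA or ACGCAG. The interval for each, 0 to 15.5%, covers both shares of the 547, and several of the 21 share an array. As a word GAGAGA overlaps AGAGAG, the second word of the 547 at 12.4%. Not every leading word was rarer than at sites. CTCTCC, the third, was at 10.8% of the 547 and 9.67% of sites, CACACA at 11.5% of each, and CCACTC at 6.76% and 6.44%. Within signals from 50 to 60, ACGCAG was present at 7.47% of unlisted regions and 16.8% of sites, and GAGAGA at 14.9% and 16.8%.

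Sequences within 50 bases of the summit are given for 4 strong single-copy promoter regions with either word, then for bli-2, sti-1 and lin-29, and then for the timing genes whose window holds either word, with GAGAGA or ACGCAG on either strand in capitals. They are on the forward strand of ce11, at chrII:11874805-11874905 for npp-3, chrV:6880735-6880835 for unc-70, chrIII:12351468-12351568 for Y75B8A.31, chrV:14012267-14012367 for aip-1, chrII:5652555-5652655 for bli-2, chrV:773376-773476 for sti-1, chrII:11929022-11929122 for lin-29, chrX:11474347-11474447 for lin-14, chrX:14747090-14747190 for let-7 and chrII:10529474-10529574 for mab-10.
npp-3: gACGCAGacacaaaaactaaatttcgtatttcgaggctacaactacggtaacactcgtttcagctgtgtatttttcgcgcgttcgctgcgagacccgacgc
unc-70: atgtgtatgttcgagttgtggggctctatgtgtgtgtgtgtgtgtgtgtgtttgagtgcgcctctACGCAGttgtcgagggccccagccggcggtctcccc
Y75B8A.31: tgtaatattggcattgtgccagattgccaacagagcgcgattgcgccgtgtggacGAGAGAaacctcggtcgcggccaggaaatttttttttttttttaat
aip-1: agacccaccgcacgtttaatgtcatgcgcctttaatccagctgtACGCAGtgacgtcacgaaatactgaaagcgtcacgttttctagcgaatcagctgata
bli-2: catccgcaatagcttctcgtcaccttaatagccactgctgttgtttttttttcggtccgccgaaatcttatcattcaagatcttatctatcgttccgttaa
sti-1: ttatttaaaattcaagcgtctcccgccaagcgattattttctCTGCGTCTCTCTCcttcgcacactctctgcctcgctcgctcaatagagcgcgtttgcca
lin-29: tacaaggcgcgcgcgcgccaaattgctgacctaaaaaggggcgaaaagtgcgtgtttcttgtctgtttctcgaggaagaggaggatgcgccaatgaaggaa
lin-14: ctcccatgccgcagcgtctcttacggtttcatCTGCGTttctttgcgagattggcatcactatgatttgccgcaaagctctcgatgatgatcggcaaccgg
let-7: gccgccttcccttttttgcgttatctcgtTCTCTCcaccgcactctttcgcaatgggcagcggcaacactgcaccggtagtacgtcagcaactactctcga
mab-10: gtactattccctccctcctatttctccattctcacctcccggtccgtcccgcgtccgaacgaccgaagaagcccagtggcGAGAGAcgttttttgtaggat
The sti-1 window holds both words side by side on the reverse strand, the bli-2 and lin-29 windows hold neither, lin-14 holds ACGCAG on the reverse strand, and let-7 and mab-10 hold GAGAGA. A match describes these letters and is not evidence of a binding site. Among the promoter regions shown, unc-70, which encodes beta-spectrin, had a signal of 60.3, with 34.8 in replicate 1 and no overlapping candidate in replicate 2. The promoter of aip-1, a stress-inducible gene, had 58.8, with 32.0 in replicate 1 and 25.3 in replicate 2. Y75B8A.31 had 59.8, with 36.4 and 21.7.

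The limit of 50 falls in a smooth run of values. Just inside it were regions at T20G5.8 (50.0031), mdt-8 (50.0223) and sipa-1 (50.0267), and just outside it C04E7.3 (49.9891), pck-2 (49.9765) and crh-1 (49.9603). The 3 just inside had scores of 417, 413 and 472, and the 3 just outside 613, 626 and 245, so the scores of the 2 sides overlapped.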

How the data were processed

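ChIP-seq peak lists of 2 biological replicates were analysed, in ce11 coordinates per the labels. The authors deposited 4 ranked and 4 thresholded lists. Lists of a replicate came from its alignments alone and series-wide lists from those of both, per the file headers of the manifests, which also name inputs of unstated role. Software for alignment and peak calling is not given in the sources used here. Each deposited score is the authors' transform of the IDR, capped at 1000. The deposited signal is the authors' peak caller value, whose scaling is not stated. Replicate signals were therefore given mostly side by side or by rank. The fold between the replicates' signals and their sum use the raw values and carry that unknown scaling. The deposited −log10 values give each row's IDR.

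The regions and gene lists were chosen with earlier results of these data known. Of the listed names, elt-5, eft-3, hsp-16.11 and hsp-16.49 matched no gene of the annotation. Rows overlapping by 1 bp or more were merged. Gene models came from Ensembl release 115 of WBcel235, the assembly of ce11, and sequence from its RefSeq genome. Locations were assigned in the order promoter, 5′ UTR, coding exon, 3′ UTR, intron, other intergenic. Tandem repeats among candidates under 50 were sought in every 10th candidate. Intervals are 95% Wilson intervals over regions and cover counting error only. Regions sharing a locus or sequence are not independent, so no p-values were computed. Merging, overlap, location, single-copy share and repeat period were tested on simulated data. Replicates 1 and 2 are separate biosamples per the labels, so the spread between them is biological and technical.

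Named were the 20 regions of highest signal, those that met the score (the 10 strongest where more than 20), up to 5 by signal near each small RNA class and per gene list, loci of 3 or more, the 2 largest sequence groups, and the 3 nearest to 50 on each side. Analyses used Python 3.11.15, numpy 2.4.6, pandas 2.3.3 and matplotlib 3.10.9.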

Additional observations from a re-analysis of the deposited data

How the results depend on the processing

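No paired analysis was possible because the series has 1 group. The count of 568 stayed between 567 and 595 with the other ranked list, without merging, with rows within 100 bp merged, with the summit as the excluding point, and without replicate 1's or replicate 2's own thresholded list (595 and 573). It was 693 with the matching thresholded list alone as the exclusion.

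The signal limit moved most results. At limits of 40, 75 and 100 the count was 2894, 18 and 10, the promoter share 21.4%, 0% and 0%, the small RNA share 6.05%, 5.56% and 0%, the mostly repeated share 4.25%, 94.4% and 100%, the share in both replicates 83.3%, 83.3% and 80.0%, the ACGCAG share 5.43%, 0% and 0%, and the median GC content 45.5%, 44.1% and 45.0%, against 24.8%, 10.04%, 8.27%, 92.6%, 7.39% and 46.5% at 50. The rRNA share was 5.56% at 75 and 0% at 100, against 0.352%. The share on X was 16.7% at 75, against 20.1%. The median single-copy share was 4.23% at 75 and 2.88% at 100, against 100%.

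A promoter width of 500 or 2000 bp gave 18.1% or 40.7%. Replicate summits within 100 bp gave a share in both of 83.5%. GC content over the whole region was 43.1%. Without the 21 regions that met the score, an alternative chosen after the data were seen, 4.94% were mostly repeated.

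With regions drawn from 1 replicate's own list (without replicate 1 or 2), the ranges were 20.7 to 25.1% in promoters, 4.89 to 8.62% near small RNA genes, 0.132 to 0.308% near rRNA genes, 7.66 to 8.46% mostly repeated, 17.2 to 18.2% on X, 4.62 to 8.0% with ACGCAG, and a median GC of 45.5% in each. Replicate 2's own list gave the lower value of each of these shares. The cause of these shifts was not tested. In all, 63 alternative values were labelled the same as the main value and 36 as moved. The label used the interval or spread of the main value or, for the count of regions, a fixed fold. Depth is unknown, so no floor could be set.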
